A study of Spinacia oleracea with 6 samples.

Results

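The spinach desaturase genes fad6 (gene number 110799552) and sadA (gene number 110785399) were followed in RNA sequencing libraries of Spinacia oleracea grown at control or high temperature. They are 2 of the 32450 genes in the deposited tables. Both were picked by gene number, and both carry these names as synonyms in the BTI_SOV_V1 reference gene table. Control plants stood in an illumination incubator at 20 °C in the day and 15 °C at night, and heat plants at 35 °C in the day and 25 °C at night, over 4 days. Each regime had 3 libraries, numbered as in the labels. The labels give no genotype, plant age or tissue, and nothing says that the libraries of a regime came from separate plants, so a p-value here speaks of the spread between the libraries alone, and that spread could be technical. The stated purpose of the study was to find genes that differ in expression under heat. Totals ran from 42.3 to 56.8 M counts per library, and every heat library was shallower than every control library.

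Fatty acids of plant cells are built in the plastid on acyl carrier protein. sadA encodes a stearoyl-ACP desaturase, a soluble enzyme that puts the first double bond into stearate while it is bound to that carrier and so makes oleate. fad6 encodes the omega-6 desaturase of the chloroplast, a membrane enzyme that adds a further double bond to oleate already built into chloroplast glycerolipids. Both take electrons from reduced ferredoxin. The number of double bonds in membrane lipids sets how fluid a membrane is, and leaves of many plants hold less unsaturated lipid when grown warm. Lipids were not measured here, and the roles are given from general knowledge of the gene names, with no sequence compared.

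Transcripts of both desaturases were lower in heat than in control. fad6, the membrane desaturase, had 425, 457 and 384 CPM in control libraries 1 to 3 and 235, 179 and 217 CPM in heat libraries 1 to 3. CPM is a gene's count as a share of its library, per 1e+06 counts, here with library sizes scaled by TMM, a method that aligns the bulk of genes between libraries. Every heat library lay below every control library, and heat library 2 was the lowest of all. The group means were 422 ± 36.8 CPM (control) and 210.4 ± 28.7 CPM (heat; SD, n = 3 each). The log2 fold change was -1.0 (SE 0.17, adjusted p = 0.00702, from edgeR's quasi-likelihood test, adjusted by Benjamini-Hochberg over all 20145 genes tested). Heat expression was thus 0.499 of control under TMM, with a 95% interval from 0.378 to 0.658 that does not cover the choice of scaling. In bulk samples, fewer cells of a type and less RNA per cell cannot be told apart.

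sadA, the stearoyl-ACP desaturase, showed a similar difference from a lower level. It had 60.6, 60.3 and 60.3 TMM-scaled CPM in control libraries 1 to 3 and 29.6, 36.5 and 29.6 CPM in heat libraries 1 to 3. The groups again did not overlap, and heat library 2, the lowest for fad6, was the highest heat library for sadA. The means were 60.4 ± 0.185 CPM (control) and 31.9 ± 4.00 CPM (heat; SD, n = 3 each), with a log2 fold change of -0.92 (SE 0.14, adjusted p = 0.00468 with edgeR's quasi-likelihood test). Heat expression was 0.528 of control under TMM, with a 95% interval from 0.421 to 0.662 under that scaling.

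The close agreement of the control libraries for sadA depended on the scaling. As CPM of the library total, sadA had 55.5, 52.2 and 46.9 in control and 34.2, 40.7 and 37.1 in heat, so that the control SD rose from 0.307% of the mean to 8.34%. On the same scale fad6 had 389, 396 and 299 CPM in control and 272, 200 and 272 CPM in heat. Control library 3 and the upper heat libraries came close for fad6 there, but no heat library reached a control library for either gene. An exact two-sided permutation test gave p = 0.1 for both genes on both scales, the smallest p that 3 libraries against 3 allow.

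**Figure D1:**
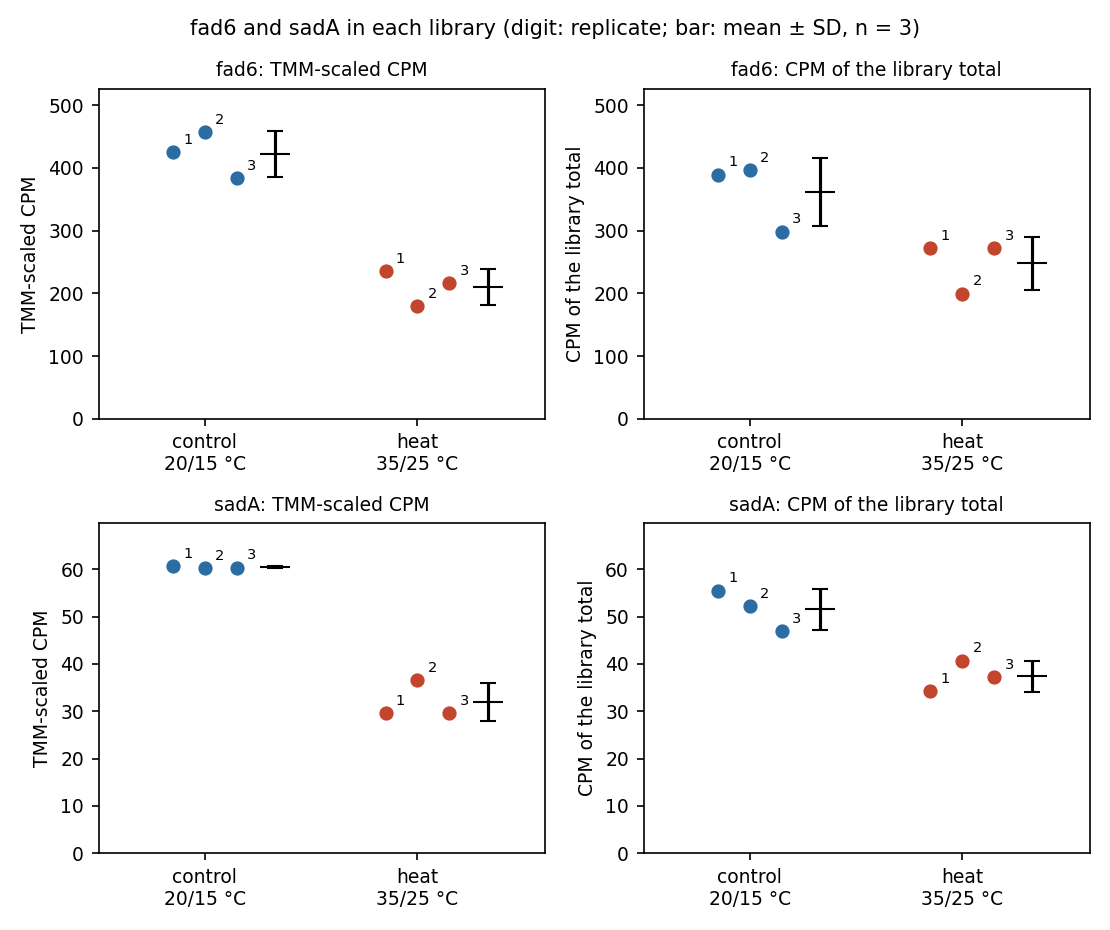
Level of fad6 (top) and sadA (bottom) in each library, as TMM-scaled CPM (left) and as CPM of the library total (right), with the replicate number beside each point and the mean ± SD of 3 libraries beside each group. All heat points lie below all control points, with means of 422 and 210.4 TMM-scaled CPM for fad6 and 60.4 and 31.9 for sadA, and the gap is narrower on the right.

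The size of both differences rested on how the libraries were scaled. TMM factors were 0.778 to 0.915 in control and 1.12 to 1.26 in heat, so the scaling itself differed between the regimes. With library size alone, the log2 fold change of fad6 was -0.54 and its call was lost (adjusted p = 0.0666 with edgeR; 1.76e-06 to 0.0722 over the 16 alternatives run for it). That of sadA was -0.46 and stayed past the threshold (adjusted p = 0.0404 with edgeR; 2.62e-06 to 0.0404 over its 16 alternatives). Over all tested genes the median log2 fold change was 0.01 under TMM and 0.47 under library size alone. Relative to that median, fad6 stood at -1.02 under both scalings, and sadA at -0.93 and -0.94. A change of scaling moves all genes and their median by nearly the same amount. The agreement therefore follows from the arithmetic and cannot show which scaling is right. With any 1 library left out, both genes remained past the threshold with edgeR, with log2 fold changes from -1.09 to -0.90 for fad6 and from -1.03 to -0.87 for sadA.

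**Figure D2:**
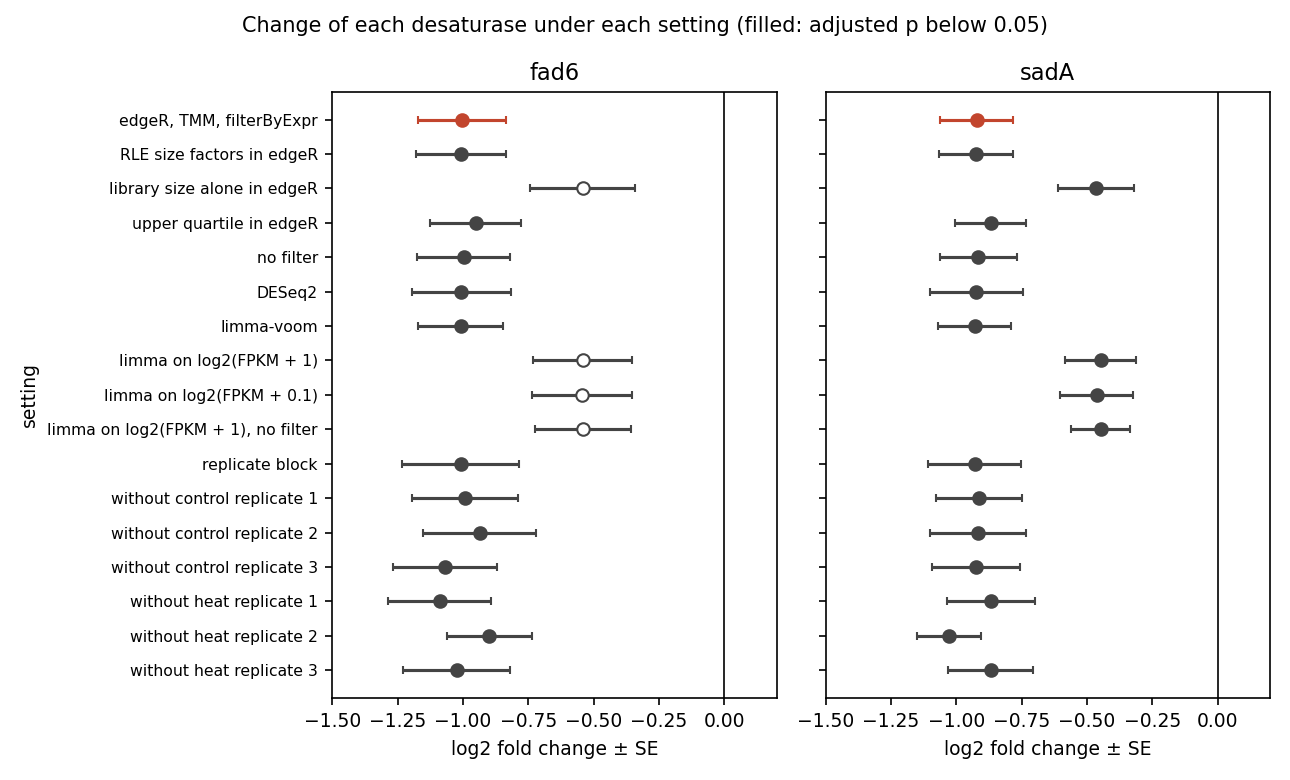
Log2 fold change of fad6 and sadA (heat minus control, ± SE, horizontal axis) under the reported setting (red) and each alternative (grey), with filled points where the adjusted p was below 0.05. The 4 settings that scale by library totals alone stand apart, near -0.54 for fad6 and near -0.46 for sadA.

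Genes lower in heat were frequent, which bears on how these calls are read. Of all tested genes, 13.6% were called lower and 25.2% were called in either direction. The groups failed to overlap, with heat below control, for 22.3% of tested genes in TMM-scaled CPM and for 10.5% in FPKM, the authors' count per gene length and library total. Among the 2735 genes called lower, the median log2 fold change was -1.41, and 70.4% of them had a more negative value than fad6 and 75.8% a more negative value than sadA. Both desaturases thus belonged to the milder part of the genes called lower, a set that holds only genes past the threshold. Among all tested genes, 15.0% had a more negative value than fad6 and 16.5% a more negative value than sadA. Under library size alone, 7.3% of tested genes were called lower and 31.2% higher, against 13.6% and 11.6% under TMM.

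**Figure D3:**
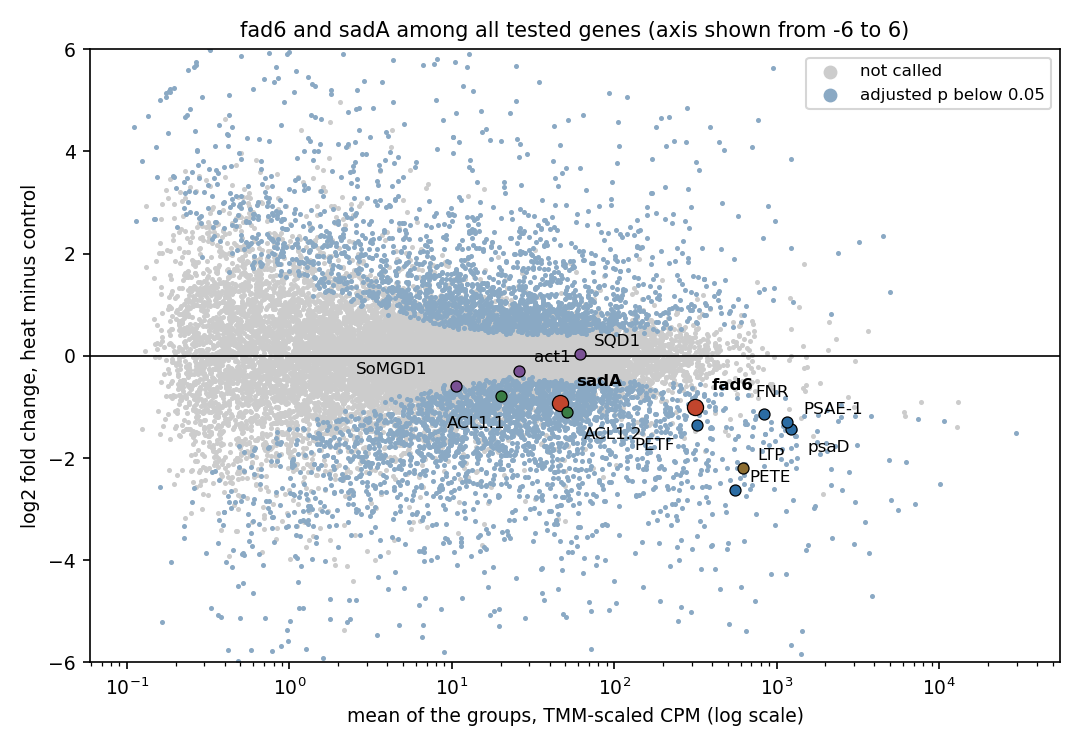
Log2 fold change (heat minus control) against the mean TMM-scaled CPM of the groups (log axis) for the tested genes within the axis limits, with called genes in blue and the named genes as large circles. fad6 (-1.0) and sadA (-0.92) lie at different levels and at nearly the same height, above LTP (-2.20) and PETE (-2.62).

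Read depth was high for both genes. fad6 had 8793 to 22484 reads per library and sadA 1572 to 2969. The smallest of these, 1572 reads of sadA in heat library 3, has an exact Poisson 95% interval of 1495.2 to 1651.7, which covers counting error only. Library-to-library SDs in heat were 13.6% of the mean for fad6 and 12.5% for sadA in TMM-scaled CPM, larger than the 95% counting interval to either side. In control this held for fad6, at 8.72% of the mean, but not for sadA, whose SD of 0.307% was below the 95% counting interval of 3.57% or more to either side in those libraries. In the BTI_SOV_V1 gene table no other gene overlaps fad6 or sadA. The gene next to fad6 there, LOC110799553, lay in the opposite direction, with 32.0 ± 3.90 CPM at the control temperature and 53.7 ± 14.8 CPM under heat, a log2 fold change of 0.74 (adjusted p = 0.0513 with edgeR). It missed the threshold in the reported fit and passed it under 7 of its 16 alternatives. Among those 7 were DESeq2 (adjusted p = 0.0244) and library size alone in edgeR (adjusted p = 0.00933). Over the 16 alternatives the adjusted p ranged from 0.00933 to 0.157. A tested neighbour of sadA was not found, since LOC110785401 had at most 9 reads in a library.

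Compared per length, fad6 was the more abundant transcript of the pair in every library. FPKM was 204.7 ± 30.8 in control and 140.5 ± 23.7 in heat for fad6, and 30.7 ± 2.56 and 22.3 ± 1.93 for sadA (SD, n = 3 each). These values are scaled by library totals, which makes the difference between the regimes smaller than under TMM. The FPKM ratio of fad6 to sadA was 6.67, 7.21 and 6.05 in control libraries 1 to 3 and 7.57, 4.66 and 6.96 in heat libraries 1 to 3. The groups overlapped, and heat library 2 alone fell under the control range. The mean log2 ratio was 2.73 ± 0.13 in control and 2.65 ± 0.37 in heat, a difference of -0.08 with a 95% interval from -0.71 to 0.55 based on the pooled SD (exact two-sided permutation p = 0.9). Without heat library 2 the difference was 0.13. A change in the balance of the pair was thus not detectable with these libraries, and the interval leaves room for one in either direction.

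The rank of each gene within its own library, which no scaling of the library alters, also differed between the regimes. A rank places a gene against the other tested genes, so it cannot tell a fall of the gene from a rise of the others. fad6 stood above 97.2% to 98.0% of tested genes by FPKM in the control libraries and above 94.7% to 96.6% in the heat libraries. sadA stood above 84.1% to 85.1% of them in control and above 72.5% to 76.7% in heat. The mean rank dropped by 10.6 percentage points for sadA and by 1.70 for fad6. How far a rank moves depends on how many genes stand near that level, so these drops do not compare the sizes of the 2 changes. By group mean, 463 tested genes were above fad6 in control and 786 in heat, and 3074 and 5164 were above sadA. Ranks did not overlap between the groups for either gene (exact two-sided permutation p = 0.1 each). The same held, with the rank lower in heat, for 21.2% of all tested genes.

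**Figure D4:**
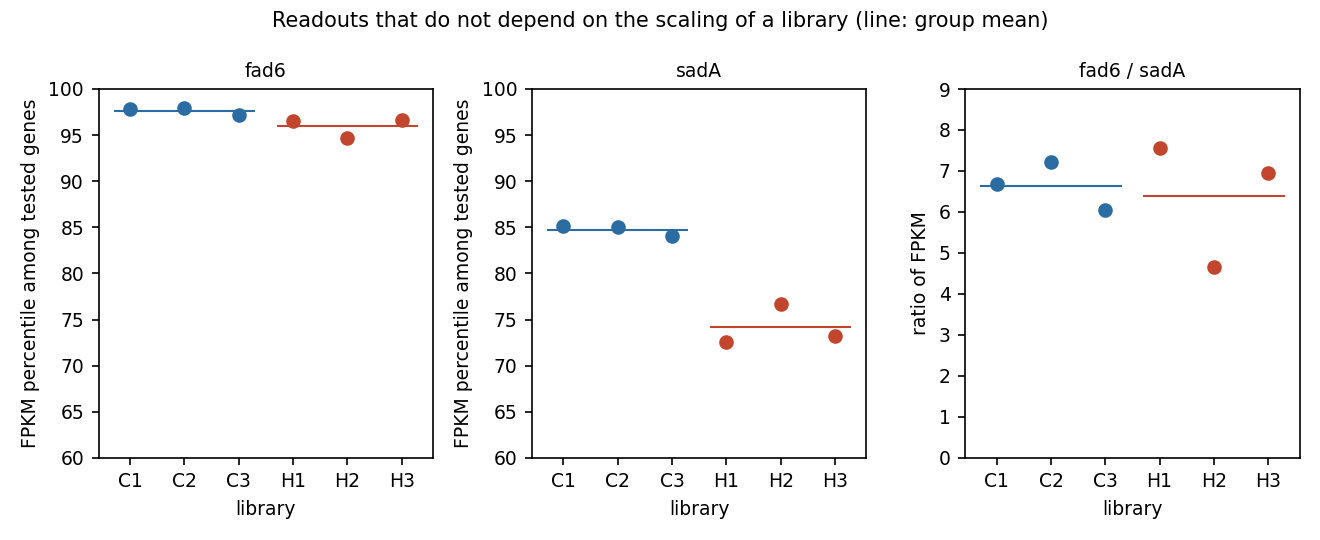
Percentile of FPKM among tested genes for fad6 and sadA (left and middle, axis from 60 to 100) and the FPKM ratio of fad6 to sadA (right) in control (C) and heat (H) libraries 1 to 3, with lines at group means. The heat percentiles lie below the control percentiles for both genes, while the ratios overlap, with heat library 2 lowest at 4.66.

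Among named genes around the desaturases, both acyl carrier protein genes were lower in heat, and those of glycerolipid assembly did not pass the test. The list held 7 tested genes with a lipid-related name, fad6 and sadA included. It was chosen with earlier results of these data known, so its counts only describe these genes. Of these, 5 were called lower, against 13.6% of all tested genes, and act1 and SQD1 did not pass. The median log2 fold change was -0.92 beside 0.01 for all tested genes. Apart from fad6 and sadA, 3 of 5 were called lower, with a median of -0.79. With library size alone, 3 of the 7 were called lower, namely sadA, ACL1.2 and LTP, against 7.3% of all tested genes.

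Acyl carrier protein holds the growing chain and presents stearate to the desaturase. ACL1.2 (LOC110802438), 1 of its 2 named genes, had 70.2, 64.3 and 74.4 TMM-scaled CPM in control and 30.4, 38.3 and 28.6 CPM in heat. Like sadA, it was highest in heat library 2 among the heat libraries, and the groups did not overlap. It fell with a log2 fold change of -1.10 (SE 0.16, adjusted p = 0.00402 with edgeR). ACL1.1 (LOC110784631) went from 25.7 ± 0.764 to 14.8 ± 1.64 CPM (log2 fold change -0.79, adjusted p = 0.00889 with edgeR). Its call was lost without control library 2 (adjusted p = 0.0541) and with library size alone, where its log2 fold change was -0.34 (adjusted p = 0.112). It was also lost with limma on log2 FPKM under the 3 settings run (adjusted p from 0.0602 to 0.0820), within a range of 0.000185 to 0.112 over its 16 alternatives.

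Glycerolipid assembly follows desaturation by sadA and provides the lipids on which fad6 acts. act1 (LOC110791570), the plastid glycerol-3-phosphate acyltransferase that moves acyl chains from the carrier protein onto glycerol-3-phosphate, stood at 28.6 ± 2.60 CPM in control against 23.4 ± 2.46 CPM under heat. Its log2 fold change was -0.29 (SE 0.15, adjusted p = 0.187 with edgeR) and turned to 0.17 under library size alone. In TMM-scaled CPM every heat library of act1 lay below every control library, as for 22.3% of tested genes. In FPKM its groups overlapped. SQD1 (LOC110793408), which makes the head group of the sulfolipid of chloroplast membranes, had 60.7 ± 3.90 and 62.0 ± 10.7 CPM (log2 fold change 0.03, SE 0.16, adjusted p = 0.904). SoMGD1 (LOC110791699), which makes the galactolipid MGDG and entered the list only after the values were seen, had 12.8 ± 3.03 and 8.45 ± 1.89 CPM (log2 fold change -0.60, SE 0.25, adjusted p = 0.127). Under library size alone SQD1 stood at 0.49 (adjusted p = 0.0843; 0.0837 to 0.995 over its 16 alternatives) and SoMGD1 at -0.14 (adjusted p = 0.740; 0.0815 to 0.801 over its 16 alternatives). These tests do not show that the assembly genes stayed level, and the value of SQD1 under library size alone lies outside its 95% interval under TMM, from -0.35 to 0.42.

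LTP (LOC110780032), a lipid transfer protein able to bind fatty acids and lipids, had the most negative value in the lipid list. It had 775, 996 and 1272 TMM-scaled CPM in control and 157, 226 and 281 CPM in heat. All heat libraries lay under all control libraries, with a log2 fold change of -2.20 (SE 0.29, adjusted p = 0.00297 with edgeR).

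The named genes of ferredoxin and of the electron carriers around it were lower in heat as well. Of the 5 tested, 5 were called lower, against 13.6% of all tested genes, with a median log2 fold change of -1.36 beside 0.01 for all tested genes. This list too was chosen with earlier results of these data known, so its count only describes these genes. PETF (LOC110805667), a ferredoxin, which is the electron donor of both desaturases, went from 464 ± 114 to 181 ± 20.7 CPM (log2 fold change -1.36, adjusted p = 0.00571). FNR (LOC110801208), ferredoxin-NADP reductase, which competes for the same electrons, went from 1146 ± 19.3 to 519.8 ± 43.5 CPM (log2 fold change -1.14, adjusted p = 0.00379). psaD and PSAE-1, of the side of photosystem I that hands electrons to ferredoxin, had log2 fold changes of -1.42 and -1.30. PETE, plastocyanin, the electron donor of photosystem I, stood at -2.62. All 5 remained called lower under library size alone, against 7.3% of all tested genes.

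**Figure D5:**
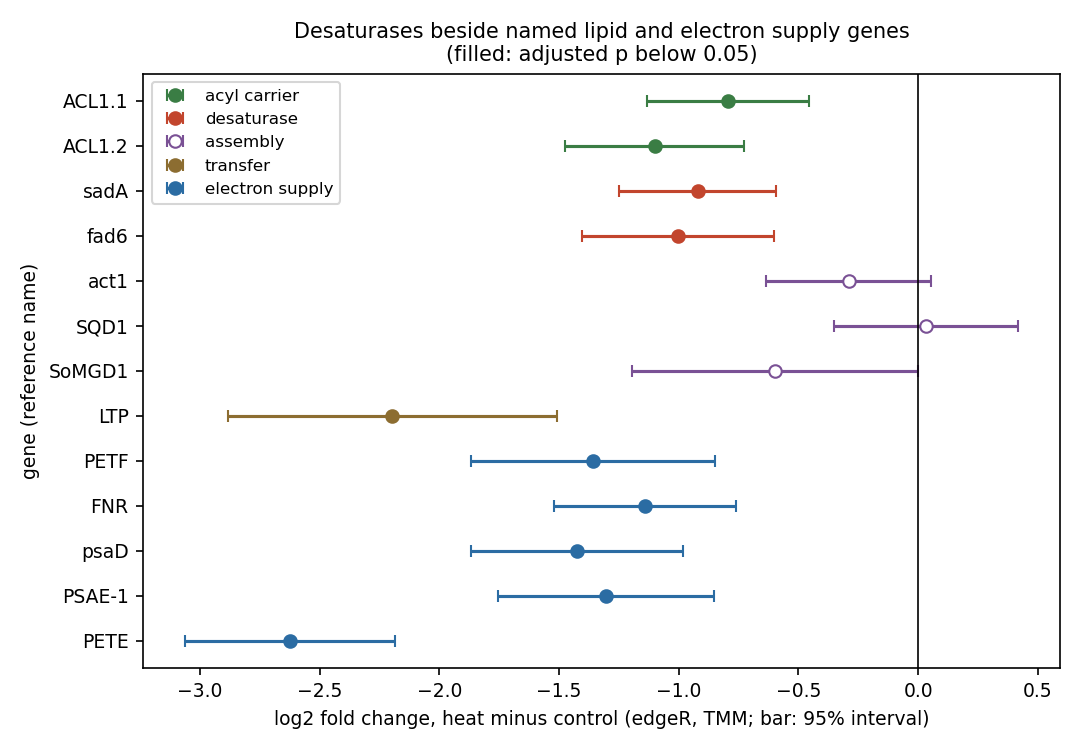
Log2 fold change (heat minus control, with 95% interval) of the desaturases beside named genes of acyl carrier protein, glycerolipid assembly, lipid transfer and electron supply, with filled points for adjusted p below 0.05. The desaturases lie near -1, level with the acyl carrier protein genes, while the intervals of act1 and SQD1 include 0. That of SoMGD1, from -1.20 to -0.002, ends just below 0, and its point is open.

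Ratios taken within a library show how far the desaturases moved apart from these genes, whatever the scaling. Each member was set against the other 11 genes named above, which with the pair itself made 23 ratios. The ratios to those genes were added after values were seen, so how many of them overlapped only describes these genes. The log2 FPKM ratio of fad6 to SQD1 went from 2.93 ± 0.13 in control to 1.90 ± 0.06 in heat, and that of fad6 to act1 from 4.11 ± 0.01 to 3.39 ± 0.12 (SD, n = 3 each). Neither overlapped between the groups, as was also so for 62.4% of tested genes set against fad6 with the ratio lower in heat. Shares of tested genes given for ratios are over the 19651 others with reads in every library. In the other direction, the ratio of fad6 to PETE was higher in heat by 1.62 and to LTP by 1.2 on the log2 scale, without overlap, against 4.76% of tested genes. The other 7 ratios of fad6, among them those to PETF, FNR and both ACL genes, overlapped between the groups.

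For sadA, 4 of the 11 ratios overlapped between the groups. Its log2 ratio to SQD1 was 0.95 lower in heat and that to act1 0.64 lower, without overlap, against 60.8% of tested genes. Its ratios to PETE, LTP, psaD, PSAE-1 and ACL1.2 were higher in heat without overlap, by 1.70, 1.28, 0.50, 0.38 and 0.18, against 5.57% of tested genes. Those that overlapped were the ratios to PETF, FNR, ACL1.1 and SoMGD1. No exact two-sided permutation p over these 23 ratios was under 0.1, the smallest possible, and the smallest adjusted value was 0.209.

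The genes most like each desaturase across the 6 libraries were sought among 118 named genes with a mean of at least 10 CPM. Likeness was the root mean square difference between log2 CPM values after each gene's mean was subtracted. Nearest to fad6 among these were POX1 (LOC110800895) at 0.13, RRF (LOC110798584), the chloroplast ribosome recycling factor, at 0.15, and FNR at 0.16. Among all 10768 genes of at least 10 CPM, named or not, they ranked only 42, 82 and 101, and the nearest stood at 0.055. Among the 3 named genes nearest to sadA were NADP-MDH (LOC110802517), the chloroplast malate dehydrogenase, at 0.11, and ACL1.2 at 0.11. Among all genes at that level these ranked 42 and 48, and the nearest stood at 0.058. Their log2 fold changes ran from -0.95 to -0.78 for POX1 and RRF and from -1.14 to -1.04 for FNR, NADP-MDH and ACL1.2. fad6 and sadA were 0.23 apart, and of 10768 genes at that level 428 were nearer to fad6 than sadA was, and 621 were nearer to sadA than fad6 was. The libraries fall into the 2 regimes, and the measure takes in the difference between them.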

How the data were processed

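Read counts per gene were used as deposited by the authors, as whole numbers without normalization. The deposited FPKM values of 24889 genes equalled the count divided by a fixed gene length and the library's total, within a relative tolerance of 1e-06. The submitters' processing notes name DESeq 1.18.0, HISAT2 2.0.4 and HTSeq 0.9.1 but not what each was used for. The build, strand setting and treatment of multiply aligned reads were not given in the sources used here, so reads of near-identical copies could have been split or dropped. Gene numbers were matched to the BTI_SOV_V1 table (25304 of 32450), which names 135 protein-coding genes and holds no sequences.

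Counts were fitted with edgeR 4.0.16 (R 4.3.3) by the quasi-likelihood test, with TMM scaling, edgeR's filter on low counts and group as the only term, over all 6 libraries. The threshold was an adjusted p of 0.05, and tests were two-sided. The fit was tested on simulated data with as many genes raised as lowered, so that test does not bear on the choice of scaling. Alternatives used other scalings, no filter, DESeq2 1.42.0, limma 3.58.1 (voom, or log2(FPKM + 1) or log2(FPKM + 0.1)), a replicate block, and each library left out. The lists took genes by the start of their names, and named genes were both desaturases, these lists and the 3 nearest named genes of each. The genes beside the desaturases, SoMGD1, the ranks within libraries and the ratios to list genes were added after values were seen. For sadA, 1 of the 3 nearest genes is not reported here. For likeness, 0.5 was added to CPM before the log. The members and lists were chosen with earlier results of these data known. accD and psaC of the lists were not analysed here. Libraries of the same regime differed from each other by more than sampling noise in every pair.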

Additional observations from a re-analysis of the deposited data

How the results depend on the processing

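fad6 lost its call with library size alone (-0.54), with limma on log2(FPKM + 1) with and without a filter (-0.54 each) and on log2(FPKM + 0.1) (-0.55), and kept it under its 12 other alternatives. sadA kept its call under all 16. ACL1.1 lost its call under the same 4 settings (-0.34 to -0.32) and without control library 2 (-0.77). Under those 4 settings 3 of 7 lipid genes were called lower. Without a filter on log2(FPKM + 1), 3 of 5 electron supply genes were. Over all tested genes, 1471 of 20145 were called lower with library size alone and 1559 on log2(FPKM + 1). The count was 1576 on log2(FPKM + 0.1), and 1426 of 24889 without a filter on log2(FPKM + 1). act1 turned to 0.17 with library size alone, 0.16 on log2(FPKM + 1) with and without a filter, and 0.17 on log2(FPKM + 0.1). Genes called over the whole table went from 5074 to 7759 (6288 higher, 1471 lower) with library size alone, 8012 on log2(FPKM + 1), 8119 on log2(FPKM + 0.1) and 2628 with the replicate block.

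With each library left out in turn, called genes ranged from 2291 (without control library 2) to 4355, with 2651 without heat library 1. Lipid genes called lower ranged from 4 to 5. Over all tested genes, those called lower ranged from 1427 of 20628 (without control library 2) to 2464 of 20494 (without heat library 3). The log2 change of the fad6 to sadA ratio ranged from -0.22 to 0.13, that of fad6 to ACL1.2 from -0.026 to 0.34, and the log2 fold change of SQD1 from -0.087 to 0.16. The cause was not tested for any of these.

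There was no sign that the replicate numbers pair the libraries, though so few pairs cannot settle it. Same-numbered libraries had correlations of deviations across genes of -0.13, -0.16 and -0.32, and each control library correlated best with a heat library of another number. With the replicate block, fad6 had -1.01 (adjusted p = 0.0432, edgeR) and sadA -0.93 (adjusted p = 0.0309, edgeR), and paired differences of the fad6 to sadA ratio gave -0.08. A search for relatives of the desaturases by protein similarity was planned and not run, since no protein sequences were at hand.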
